A study of Mus musculus with 6 samples.

Results

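The genes described here are those named as ion channels or channel subunits: potassium (Kcn), voltage-gated sodium (Scn) and calcium (Cacn) channels, chloride channels and transporters (Clcn, Clic), TRP channels (Trpc, Trpm, Trpv) and ATP-gated channels (P2rx). They were chosen by the start of the gene symbol alone, and where several probe sets read a gene, the one brightest on average across the 6 arrays stood for it. In all, 157 of 18193 measured genes matched. Of these, 153 encode a channel subunit or a protein that regulates one. The other 4 match by symbol only: Trpc4ap encodes a protein that binds a TRP channel, and Kcnq1ot1, Kcnmb4os1 and Kcnmb4os2 are noncoding transcripts named for a nearby channel gene.

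The RNA was from the whole lens of Balb/c mice, taken 2 days after birth. The study compared 3 transgenic samples (T1 to T3) with 3 wild-type samples (W1 to W3), 1 Affymetrix array each. The labels do not name the transgene, its promoter or the number of lines, and the design text counts 12 lenses per genotype without saying how they were divided. Whether replicates were separate animals is not said, so the p-values reflect the spread among these 6 samples, part or all of which may be technical.

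The lens has no blood supply. Sodium pumps, channels and gap junctions of its epithelial and fiber cells drive a circulation of ions and water that feeds the inner cells and keeps the tissue clear. Potassium channels set the membrane potential, chloride channels and transporters help to set cell volume and the pH of endosomes and lysosomes, and TRP channels carry calcium and other cations in response to stretch, temperature or lipid messengers.

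The arrays showed lens RNA, as labelled, with markers of other tissues beside it. All 13 measured lens markers of a list of 14 lay above the median of all probe sets, 5.34 on the log2 scale, and the crystallin gene Cryaa stood at 14.51 in wild-type samples. Foxe3, a transcription factor gene of the lens epithelium, had a level of 13.38 in the transgenic group and 8.74 in the wild type. T3 stood apart from the other arrays. The summed linear level of 12 skin and cornea epithelium markers was 30428 on T3 and 1877 to 3009 on the other arrays. That of 14 skeletal muscle markers was 9730 on T3 and 589 to 805 elsewhere, and that of 8 mesenchyme markers was 13160 against 839 to 1204. Of 17 measured neural retina markers, 16 had a difference below 0 and 2 fell, with summed levels of 2770 to 4587 in transgenic and 3596 to 5799 in wild-type samples. The 7 pigment cell markers summed to 4959 on T2 and to 1583 to 2482 on the other arrays.

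Of the 157 genes, 82 had a mean level above the median of all probe sets (52.2%), against 66.5% of all 18193 genes read by the same rule. Above the upper quartile, 7.11, stood 21 of the 157 (13.4%), against 38.4% of all genes. The median is a reference point and not a limit of detection, and the brightness of a probe set also depends on its sequence, so these levels do not rank the transcripts by abundance. Just under the median lay the sodium channel gene Scn8a at 5.32 and the potassium channel gene Kcnn2 at 5.32, and just over it Kcnk16 at 5.35 and Scn3b at 5.41.

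**Figure D1:**
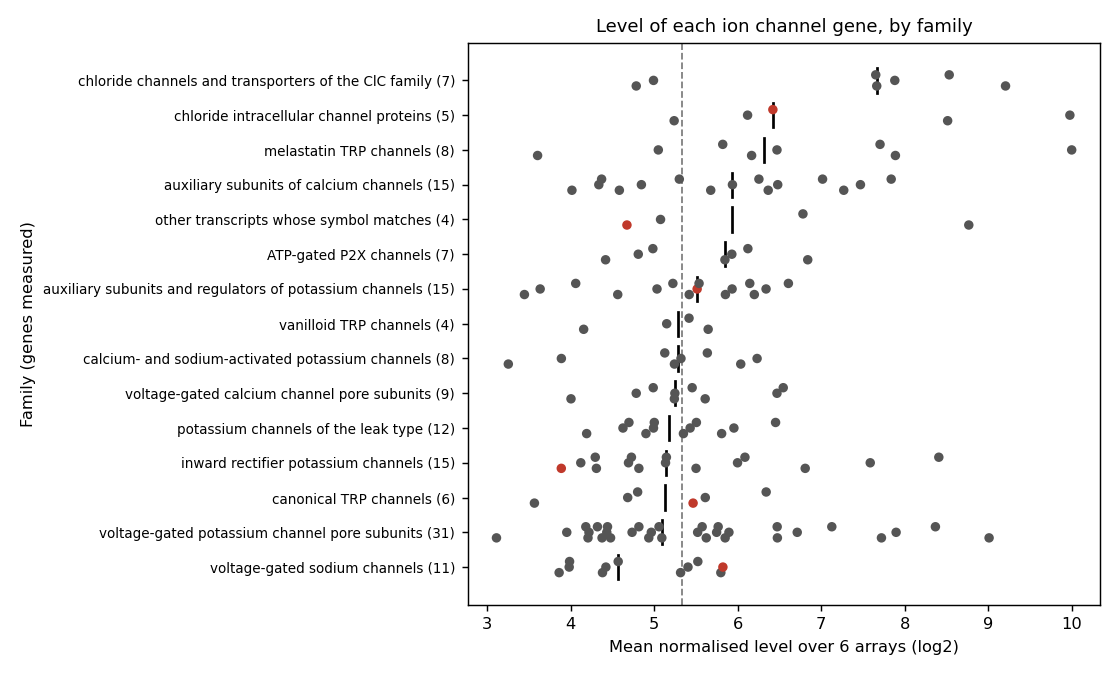
Each point is the mean normalised level (log2) of 1 of the 157 genes over the 6 arrays, in rows by family, with black bars at family medians and a dashed line at the median of all probe sets, 5.34. Red points are the 6 genes lower in transgenic samples; the ClC family has the highest median, 7.66, and the voltage-gated sodium channels the lowest, 4.57.

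On single arrays, 77, 80 and 77 of the 157 genes stood above that array's median in T1, T2 and T3, and 84, 83 and 83 in W1, W2 and W3. The ranges of the groups did not overlap, but the same counts over all genes were not made. The gap is therefore not read as a change of these genes as a set. By group means, 10 genes were above the median in wild-type samples only, among them Trpc6, Kcne1 and Scn11a. Clic3 and 4 others, Cacna1b, Kcnd1, Kcnip3 and Kcnk16, were above it in transgenic samples only. Trpc6, Kcne1 and Scn11a thus count as above the median through their wild-type level.

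Between genotypes, 6 of the 157 genes passed the test (limma, Benjamini-Hochberg adjusted p under 0.05 over all genes), and all 6 were lower in transgenic samples. That is 3.82% of the genes, where 2.61% of all genes were called lower and 4.55% in either direction. None of the 157 was called higher, beside 1.93% of all genes. Over all genes 352 were higher and 475 lower, or 252 and 666 with the arrays set to a common median. At an unadjusted p under 0.05 in limma, 19 were higher and 27 lower, or 12.1% and 17.2%, where all genes gave 11.5% and 10.9%. With the ordinary linear model in place of limma's moderated test, 0 were higher and 2 lower, Trpc6 and P2rx1. The groups did not overlap for 52 of the 157 genes, 23 higher and 29 lower. The share of 33.1% stands beside 28.8% of all genes. The median difference of the 157 was -0.012, against 0.011 over all genes, and 81 of the 157 differences were below 0, or 51.6%, against 47.7% over all genes. The 6 that fell were the cation channel gene Trpc6, the sodium channel gene Scn11a, the potassium channel subunit gene Kcne1, the chloride intracellular channel gene Clic5, the inward rectifier gene Kcnj2 and the noncoding Kcnmb4os1.

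**Figure D2:**
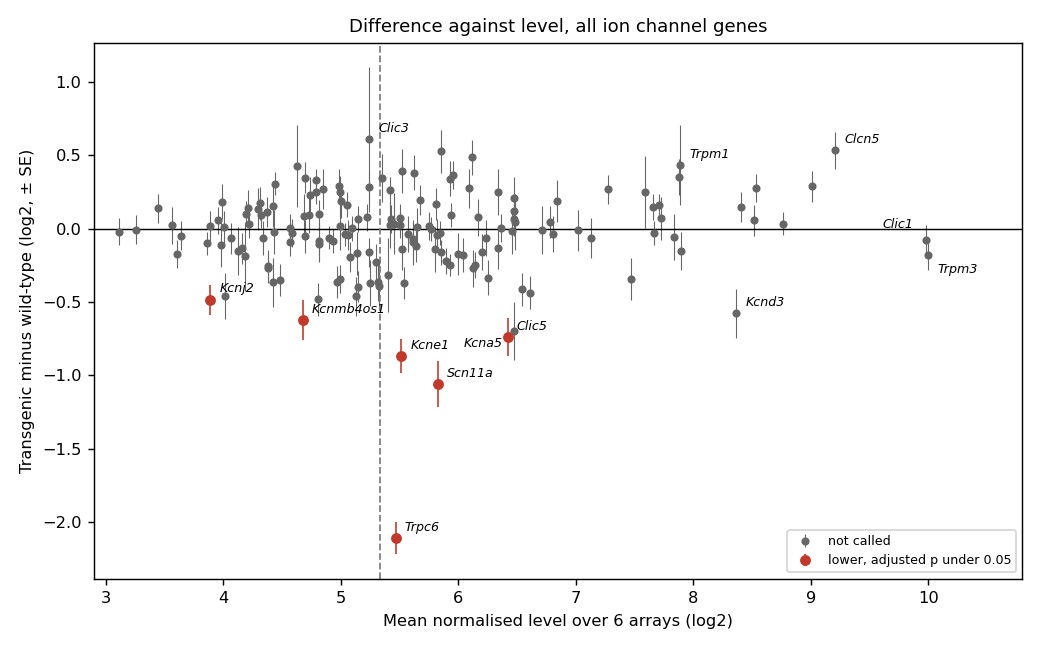
The difference between transgenic and wild-type samples (log2, with limma's standard error) is plotted against the mean level over 6 arrays (log2) for each of the 157 genes, with a dashed line at the median of all probe sets. The 6 red points are the genes that passed the test; Trpc6 stands alone at -2.11, and the largest positive difference, 0.61 for Clic3, has a wide error.

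The windows around the annotated start are shown for the 3 of these genes with 1 such window each and a level above the median. RefSeq sequence of GRCm38.p6 was at hand for 4 of the 6, from 250 bases before the start to 50 after it. Capitals mark matches to 3 motifs of lens transcription factor classes, searched on both strands: the forkhead core TAAACA, the Maf half-site TGCTGA and the heat shock pair GAANNTTC.
Trpc6, chr9:8543892-8544191, plus strand: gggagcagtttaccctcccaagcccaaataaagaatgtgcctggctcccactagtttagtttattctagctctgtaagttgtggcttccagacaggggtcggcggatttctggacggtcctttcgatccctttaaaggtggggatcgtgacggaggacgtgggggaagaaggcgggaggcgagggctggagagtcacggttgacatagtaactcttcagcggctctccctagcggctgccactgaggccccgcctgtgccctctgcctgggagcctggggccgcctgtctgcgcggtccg
Scn11a, chr9:119825407-119825706, minus strand: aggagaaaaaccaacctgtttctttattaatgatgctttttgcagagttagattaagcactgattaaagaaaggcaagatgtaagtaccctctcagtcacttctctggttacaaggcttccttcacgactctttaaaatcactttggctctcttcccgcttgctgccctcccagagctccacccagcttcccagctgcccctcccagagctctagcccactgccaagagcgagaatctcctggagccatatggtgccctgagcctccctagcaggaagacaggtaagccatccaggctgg
Clic5, chr17:44188322-44188621, plus strand: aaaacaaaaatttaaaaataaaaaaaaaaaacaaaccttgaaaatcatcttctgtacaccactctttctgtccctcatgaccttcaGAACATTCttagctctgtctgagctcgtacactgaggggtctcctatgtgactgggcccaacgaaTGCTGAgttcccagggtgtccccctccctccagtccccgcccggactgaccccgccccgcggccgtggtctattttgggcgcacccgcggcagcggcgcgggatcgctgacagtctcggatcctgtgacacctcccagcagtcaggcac
The Clic5 window held 1 Maf half-site and 1 heat shock pair. The windows of Trpc6, Scn11a and Kcnj2 held none of the 3 motifs. Of all 32851 windows in the table, 13.4% held the forkhead core, 19.5% the Maf half-site and 7.86% the heat shock pair. Of 168 windows of the channel genes the shares were 10.7%, 17.3% and 7.74%. These are matches of letters and not shown to be bound sites.

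Trpc6 encodes a calcium-permeable cation channel that opens in response to diacylglycerol. Its level was 4.57 on T1, 4.35 on T2 and 4.32 on T3, and 6.47 on W1, 6.69 on W2 and 6.40 on W3. The groups lay far apart beside the spread within each. The difference was -2.11 ± 0.11 (SE, n = 3 each; limma adjusted p = 0.0001), a 4.32-fold lower level in transgenic samples. The gene has 1 probe set, and its transgenic level lay near the lower quartile of all probe sets, 4.19. With any 1 array left out, limma's adjusted p was at most 0.00133, and the difference over all other settings stayed between -2.19 and -2.03. In whole-lens RNA, fewer cells of a type and less RNA per cell cannot be told apart. The neighbouring genes Cep126 and Pgr differed by 0.26 and 0.16 without passing.

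The other 5 measured canonical TRP genes did not pass, and their differences ran from -0.48 to 0.087. Trpc7, the brightest of the family, stood at 6.27 and 6.41 in transgenic and wild-type samples (difference -0.14, 95% interval -0.46 to 0.19). Trpc1 stood at 5.57 and 5.66 (-0.45 to 0.26). Trpc2, a pseudogene in some mammals and a pheromone-sensing channel in mice, did not pass at -0.48 ± 0.11 (SE, limma adjusted p = 0.0545). The mean of its 2 probe sets differed by -0.11 (limma adjusted p = 0.482). Trpc2 passed with trended robust variances (limma adjusted p = 0.0441), with array weights (0.0276) and without T3 (0.0202), and in no other setting. It lies outside the rule for named genes.

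Scn11a encodes a sodium channel best known from pain-sensing neurons. It stood at 5.48, 5.09 and 5.31 on T1 to T3 and at 6.05, 6.59 and 6.42 on W1 to W3. Every wild-type array was higher than every transgenic one. The difference was -1.06 ± 0.16 (SE, n = 3 each; limma adjusted p = 0.0133), or 2.08-fold. The call was lost with the ordinary test and with the replicate block in limma (adjusted p up to 0.117). It was also lost without T2, W2 or W3 (limma adjusted p up to 0.0631). By the mean over 6 arrays, Scn11a was also the brightest of 11 measured sodium channel genes. In transgenic samples alone it stood at 5.29, under Scn2b at 5.73 and Scn2a at 5.45. Of the 11 genes, 4 lay above the median, 9 had differences below 0 and the 10 besides Scn11a did not pass. The next gene on the chromosome, the sodium channel gene Scn10a, differed by -0.37 ± 0.17 (SE; limma adjusted p = 0.245) at the low level of 4.42. The summed neural retina markers overlapped between the groups, while 16 of 17 lay below 0. Their part in this fall was not tested.

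**Figure D3:**
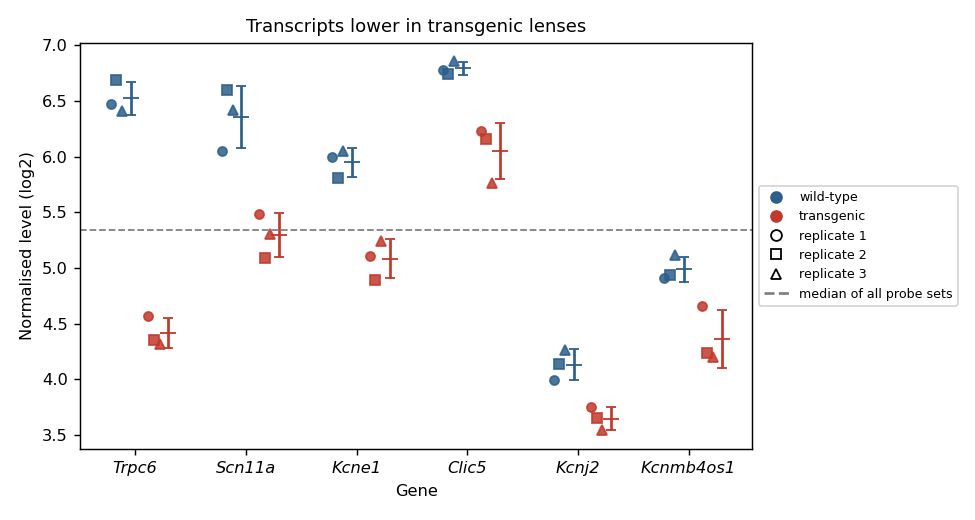
Normalised level (log2) on each array of the 6 transcripts called lower, wild-type in blue and transgenic in red, with symbols for replicate numbers and the mean ± SD (n = 3) beside them. For every one of them all transgenic arrays lie below all wild-type arrays; Kcnj2 and Kcnmb4os1 lie under the dashed median of all probe sets in both groups.

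Kcne1 encodes a small membrane protein that slows the potassium channel formed by the Kcnq1 product. Its level was 5.11, 4.89 and 5.24 on T1 to T3 against 5.996, 5.803 and 6.047 on W1 to W3. The groups were apart by more than their spread, with a difference of -0.87 ± 0.12 (SE, n = 3 each; limma adjusted p = 0.00841), or 1.82-fold. The call held with any 1 array left out (adjusted p at most 0.0481) and was lost with the ordinary test (0.0903). A second probe set, at 5.23, differed by -0.05, and the mean of both by -0.46 (limma adjusted p = 0.0223). The pore gene Kcnq1, named for its link to Kcne1 and outside the rule, stood at 5.85 and differed by -0.16 (limma adjusted p = 0.304). Nearby on the same chromosome lies Clic6, a chloride intracellular channel gene, which differed the other way by 0.49 ± 0.12 (SE; limma adjusted p = 0.0666). The mean of the 2 probe sets of Clic6 differed by 0.21 (limma adjusted p = 0.182). Rcan1, between Kcne1 and Clic6, differed by 0.17.

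Of 15 auxiliary subunits and regulators of potassium channels, 9 lay above the median, 1 fell and 14 did not pass. The brightest was Kcnmb4, which encodes a beta subunit of the calcium-activated BK channel. It stood at 6.24, 6.44 and 6.49 on T1 to T3 and at 7.01, 6.70 and 6.76 on W1 to W3. The ranges did not overlap, but the difference of -0.44 ± 0.11 (SE, n = 3 each) did not pass (limma adjusted p = 0.0756). The opposite-strand transcript Kcnmb4os1 did pass, at -0.62 ± 0.14 (SE; limma adjusted p = 0.0468), with levels of 4.66, 4.23 and 4.20 against 4.91, 4.93 and 5.12. All of these lie under the median of all probe sets, and the call was lost without T2, T3, W1, W2 or W3 (adjusted p up to 0.15). It was also lost on the deposited values (limma adjusted p = 0.0586), with a common array median (0.0503), with the mean of probe sets (0.0502), with the ordinary test and with the replicate block. Which strand each probe set reads is not given in the sources used here. Kcnma1, the pore gene of the BK channel and outside the rule, differed by -0.16 (limma adjusted p = 0.372).

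Of 31 genes for pore subunits of voltage-gated potassium channels, 15 lay above the median and none passed, with 14 differences above 0 and 17 below (16 and 15 on the deposited values). The brightest was Kcnh2, which encodes the channel of the rapid repolarising current of the heart. It stood at 9.27, 9.03 and 9.16 on T1 to T3 and at 8.71, 8.92 and 8.96 on W1 to W3. The transgenic arrays were all higher, by 0.29 ± 0.11 (SE, n = 3 each), without passing (limma adjusted p = 0.162). Kcnd3, of the fast inactivating A-type channels, went the other way. Its levels were 8.17, 8.33 and 7.74 against 8.43, 8.74 and 8.80, a difference of -0.58 ± 0.17 (SE; limma adjusted p = 0.0971). Of its further probe sets, the dimmest, at 4.24, differed by -0.73 and another by 0.16. With the arrays set to a common median in place of quantile normalisation, Kcnd3 passed at -0.68 (limma adjusted p = 0.0428). The mean of its 4 probe sets differed by -0.31 (limma adjusted p = 0.17). Kcna5, of the ultrarapid current of heart atria and outside the rule for named genes, had levels of 5.84, 6.33 and 6.20 on T1 to T3 and of 7.21, 6.78 and 6.47 on W1 to W3. The groups did not overlap, and the difference was -0.70 (limma adjusted p = 0.095). Kcns3, a silent subunit that modifies other channels, differed by -0.15, and the mean of its probe sets by 0.10. Kcna1, a delayed rectifier of nerve axons with the smallest p of the family, stood at 4.60 and 4.29 (limma adjusted p = 0.0785).

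The inward rectifiers let potassium into the cell more readily than out. Of 15 measured, 6 lay above the median, and Kcnj2 alone passed. Kcnj2 stood at 3.75, 3.65 and 3.54 on T1 to T3 and at 3.99, 4.14 and 4.27 on W1 to W3. Both groups lay under the lower quartile of all probe sets or close to it. The difference of -0.48 ± 0.10 (SE, n = 3 each; limma adjusted p = 0.0418) was lost when T1, T2, T3, W2 or W3 was left out (adjusted p up to 0.135), and on the deposited values (0.0593), with the ordinary test and with the replicate block. Kcnj16, its neighbour on the chromosome, differed by -0.053. Kcnj11, the pore of the ATP-sensitive channel, was the brightest of the family at 8.48 and 8.33, a difference of 0.15 (95% interval -0.093 to 0.39).

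Potassium channels of the leak type hold the resting potential. None of 12 passed and 6 lay above the median. Their differences were above 0 for 10 of the 12 (47.7% of all genes were below 0), with a median of 0.13, and this count was 10 under each of the 3 scalings tried. The groups did not overlap for 2 of the 12 upward and 1 downward (2 and 0 on the deposited values), where 15.3% of all genes were higher and 13.5% lower without overlap. Kcnk1, described in the lens by earlier work and the brightest of the family, stood at 6.45 and 6.46, with an interval of the difference from -0.38 to 0.35. Kcnk7, with the smallest p, stood at 6.03, 6.13 and 6.26 on T1 to T3 and at 5.68, 5.85 and 5.79 on W1 to W3, a difference of 0.36 ± 0.09 (SE; limma adjusted p = 0.0755). Among 8 calcium- and sodium-activated potassium channel genes, 3 lay above the median, none passed and 7 differences were below 0. Kcnn3, a small-conductance channel, differed by -0.46 ± 0.13 (SE; limma adjusted p = 0.0933), and Kcnn1, the brightest, by -0.065.

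The ClC proteins move chloride across the surface membrane or exchange it for protons in endosomes and lysosomes. None of the 7 measured genes passed. For 5 of the 7, every transgenic array was higher than every wild-type array, where 15.3% of all genes were. Clcn2, which encodes a surface chloride channel, had the opposite order, and Clcn4 overlapped. Clcn5, the endosomal exchanger that is mutated in Dent disease, stood at 9.39, 9.51 and 9.52 on T1 to T3 and at 8.67, 9.10 and 9.05 on W1 to W3. The difference was 0.53 ± 0.12 (SE, n = 3 each), just short of the threshold (limma adjusted p = 0.0552). Clcn5 passed with dim genes left out (limma adjusted p = 0.042), with trended robust variances (0.0241) and with array weights (0.0397). It did not pass on the deposited values (limma adjusted p = 0.0589), with a common array median (0.0569) or with the mean of probe sets (0.255). Nor did it with the replicate block (limma adjusted p = 0.0819), the ordinary test (adjusted p = 0.178) or any 1 array left out (limma adjusted p 0.0666 to 0.162). Its other probe sets, at 6.47, 4.39 and 3.85, differed by 0.16, -0.18 and 0.11, and the mean of all 4 by 0.15.

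Clcn3, an endosomal exchanger that has been studied in lens volume regulation, stood at 8.70, 8.75 and 8.56 against 8.44, 8.47 and 8.27. The difference was 0.27 ± 0.10 (SE; limma adjusted p = 0.145). Its 4 further probe sets differed by -0.03, 0.15, 0.45 and 0.16. Clcn7, the lysosomal exchanger, differed by 0.35 ± 0.12, with further probe sets at 0.09 and 0.09. Clcn6, of late endosomes, differed by 0.15, its second probe set by -0.41 and the mean of both by -0.13. Clcn1, the chloride channel of muscle, stood at 4.95 and 4.62, under the median in both groups. These 4 did not pass. In other settings Clcn1 did, on the deposited values (limma adjusted p = 0.0455), with the mean of probe sets (0.0487) and with array weights (0.0428). The number of ClC genes whose transgenic arrays were all higher was 5 as normalised, 4 on the deposited values and 3 with the arrays set to a common median.

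**Figure D4:**
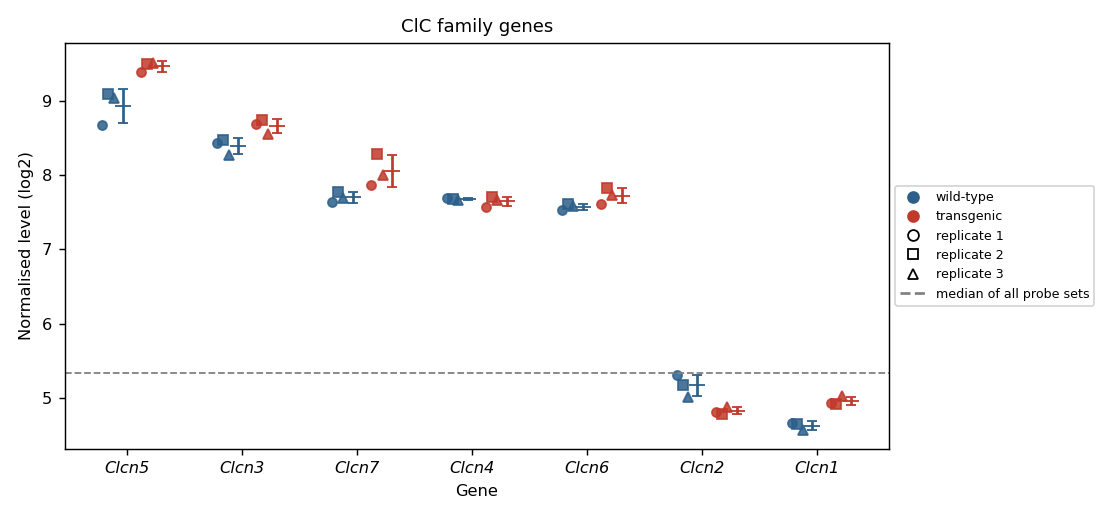
Normalised level (log2) of the 7 ClC family genes on each array, wild-type in blue and transgenic in red, with mean ± SD (n = 3). Clcn5, Clcn3, Clcn7, Clcn6 and Clcn1 have all transgenic arrays above all wild-type arrays, Clcn4 overlaps and Clcn2 has the opposite order; none passed the test.

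Chloride intracellular channel proteins occur in soluble and membrane forms, and Clic5 is known for its link to the actin cytoskeleton. Clic5 stood at 6.23, 6.16 and 5.77 on T1 to T3 and at 6.77, 6.74 and 6.86 on W1 to W3. The wild-type arrays were close together and all higher. The difference was -0.74 ± 0.13 (SE, n = 3 each; limma adjusted p = 0.0239), or 1.67-fold. Its 3 other probe sets all differed downward, by -1.14 at a level of 6.05, by -0.50 at 5.84 and by -0.21 at 4.87. The call was lost when T2, W1, W2 or W3 was left out (limma adjusted p up to 0.0894), with the ordinary test and with the replicate block. The further genes of the family did not pass. Clic1 stood at 9.94 and 10.02 (95% interval of the difference -0.33 to 0.17). Clic4, a family member of the cytoplasm and nucleus, stood at 8.54 and 8.49. Its difference was 0.056 as normalised and -0.021 on the deposited values.

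The melastatin TRP genes held the brightest of the 157. Trpm3, which encodes a heat- and steroid-activated channel, stood at 10.05, 9.94 and 9.73 on T1 to T3 and at 10.15, 10.07 and 10.04 on W1 to W3. T1 lay just above W3 and the other transgenic arrays lay below all wild-type arrays. The difference of -0.18 ± 0.10 (SE) did not pass (limma adjusted p = 0.352; 95% interval -0.42 to 0.061). Further probe sets at 8.41 and 8.39 differed by -0.12 and -0.06. None of the 8 melastatin genes passed, and 6 lay above the median. Trpm7, a channel fused to a kinase that carries magnesium, differed by 0.16 ± 0.08 (SE; limma adjusted p = 0.266) with all transgenic arrays higher.

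Trpm3 and Trpm1 carry microRNAs within their annotated spans that share a seed, shown here because both host transcripts were among the 21 above the upper quartile. The arrays read the host transcripts; the microRNAs were not measured. RefSeq (GRCm38.p6) gives these mature sequences, with the seed, bases 2 to 8, in capitals.
miR-204-5p, in Trpm3, chr19:22750610-22750631, plus strand: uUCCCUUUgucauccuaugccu
miR-211-5p, in Trpm1, chr7:64205831-64205852, plus strand: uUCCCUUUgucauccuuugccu
They are identical in 21 of 22 bases. In all, 7 of the 157 genes span at least 1 of 20 mature microRNAs in that table, and this seed was the only one found in 2 hosts.

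Trpm1, a channel of melanocytes and of retinal bipolar cells, stood at 7.78, 8.72 and 7.81 on T1 to T3 and at 8.01, 7.34 and 7.66 on W1 to W3. T2 was higher than all other arrays. The difference of 0.43 ± 0.27 (SE) did not pass (limma adjusted p = 0.391), and without T2 it was 0.12. The pigment cell markers Dct, Pmel, Tyr and Mlana were also highest on T2, with Dct at 10.77 there and at 8.81 to 9.80 on the others. Kcnj13, an inward rectifier of the retinal pigment epithelium, stood at 7.60, 8.04 and 7.49 against 7.87, 6.93 and 7.59. It too was highest on T2, with a wide interval of the difference from -0.32 to 0.82. Rpe65, a defining marker of the pigment epithelium, stood under the median of all probe sets on every array (4.40 to 5.03). The part of pigment cells in these levels was not tested.

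**Figure D5:**
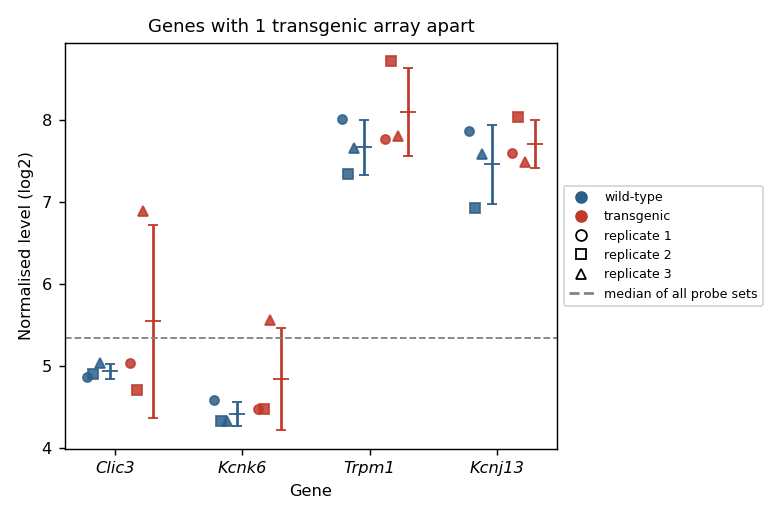
Normalised level (log2) of 4 genes on each array, wild-type in blue and transgenic in red, with mean ± SD (n = 3). Clic3 and Kcnk6 are raised on T3 alone, at 6.89 and 5.57, and Trpm1 and Kcnj13 are highest on T2, at 8.72 and 8.04.

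On T3, the array with raised skin, muscle and mesenchyme markers, 2 of the 157 genes lay more than 1 log2 unit from the mean of T1 and T2. Both were chosen after their values were seen. Clic3 stood at 6.89 on T3 and at 4.71 to 5.04 on the other 5 arrays. Its difference was 0.61 as measured and -0.065 without T3. Kcnk6 stood at 5.57 on T3 and at 4.33 to 4.58 elsewhere. The part of other tissues in these levels was not tested. Of the 6 genes called lower, Trpc6, Scn11a, Kcne1 and Clic5 were called without T3 as well, and Trpc2 was added.

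Of the vanilloid TRP genes, Trpv4 and Trpv1 are known as sensors of pressure in the lens. Trpv4 stood at 5.43 and 5.41, just above the median, with an interval of the difference from -0.34 to 0.39. Trpv1 stood at 4.09 and 4.22, under the lower quartile of all probe sets or near it. Trpv2, a channel that responds to heat and stretch, differed by -0.40 ± 0.10 (SE; limma adjusted p = 0.0773) with all transgenic arrays lower. Trpv6, an intestinal calcium channel, was the brightest of the 4 and differed by 0.012. None of the 4 passed.

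Of 9 genes for pore subunits of voltage-gated calcium channels, 4 lay above the median and none passed. Cacna1d, an L-type channel, was both the brightest and the one with the smallest p. It stood at 6.48, 6.39 and 6.16 on T1 to T3 and at 6.69, 6.67 and 6.89 on W1 to W3, a difference of -0.41 ± 0.11 (SE; limma adjusted p = 0.0853). A second probe set differed by -0.20. Cacna1c, the L-type channel of heart and smooth muscle, stood at 5.11 and 4.86, under the median, and differed by 0.25 (limma adjusted p = 0.222). Among 15 auxiliary subunits, none passed and 9 lay above the median. Cacng7, of a family that also escorts glutamate receptors, stood at 7.81 and 7.87. Cacnb4, a beta subunit, stood at 3.79 and 4.25 and differed by -0.46 (limma adjusted p = 0.146).

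The ATP-gated channels open on extracellular ATP. None of the 7 passed and 4 lay above the median. P2rx4, the brightest, stood at 6.93 and 6.75 (95% interval of the difference -0.14 to 0.51). P2rx1, a receptor of smooth muscle and platelets with the smallest p of the family, stood at 5.83, 5.77 and 5.81 on T1 to T3 and at 6.08, 6.05 and 6.03 on W1 to W3. The groups did not overlap, and the difference of -0.25 ± 0.08 (SE) did not pass (limma adjusted p = 0.106). The mean of the 2 probe sets of P2rx1 differed by -0.11 (limma adjusted p = 0.435). P2rx7, a receptor of immune and epithelial cells, stood at 4.50 and 4.34. Trpc4ap, which matched by symbol only, stood at 8.78 and 8.75.

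Members of these families often lie side by side. Of the 154 genes located in RefSeq (GRCm38.p6), 20 pairs were direct neighbours, and 8 of the 20 pairs differed in the same direction. For 31 genes another probe set also exceeded the median, and for 18 of these its difference had the same sign.

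Pumps, exchangers and other channels that work with these genes were read from 5 further lists. Of 91 measured genes, 2 rose (2.2%) and 2 fell (2.2%), and 87 did not pass, beside 1.93% of all genes called higher and 2.61% called lower. Scnn1b, a subunit of the epithelial sodium channel, fell by 1.14 ± 0.17 (SE, n = 3 each; limma adjusted p = 0.0145). It stood at 6.33, 6.33 and 6.23 on T1 to T3 and at 7.07, 7.42 and 7.83 on W1 to W3. Its call was lost without T1, T2 or W2 (limma adjusted p up to 0.0643). Atp2b2, a calcium pump of the surface membrane, fell by 0.59 ± 0.10 (SE; limma adjusted p = 0.0246), but the mean of its 3 probe sets differed by -0.16 without passing, and the call was lost without T2, T3, W2 or W3 (limma adjusted p up to 0.102). Fxyd1, a regulator of the sodium pump, rose by 0.45 ± 0.10 (SE; limma adjusted p = 0.0476) from 9.67 to 10.12. The call was lost with any 1 array left out, on the deposited values (limma adjusted p = 0.058) and with a common array median (0.0614). Slc12a4, a potassium-chloride cotransporter, rose by 0.44 ± 0.09 (SE; limma adjusted p = 0.0386) and was also lost with any 1 array left out.

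The brightest genes of those lists did not pass. Atp1b3, a beta subunit of the sodium pump, differed by 0.11, and Atp2a2, the calcium pump of the endoplasmic reticulum, by 0.14. Wnk1, a kinase that controls chloride cotransport, differed by 0.13. The lysosomal cation channel gene Mcoln1 differed by 0.087. The fiber water channel gene Mip differed by 0.043. By list, 1 of 10 sodium pump genes rose, 1 of 24 calcium handling genes fell, 1 of 22 chloride genes rose and 1 of 28 other cation channel genes fell. None of the 7 gap junction and water channel genes passed.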

How the data were processed

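Whole-lens RNA of 6 samples was labelled with biotin by in vitro transcription and hybridised to Affymetrix arrays, per the labels' protocols. The deposited values are on a log2 scale, as their range shows, with 1 for each probe set on each array. How they were summarised and normalised is not stated in the labels.

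After 64 control probe sets were set aside, 45037 remained. Deposited array medians differed by at most 0.077 and upper quartiles by 0.12, and the values were quantile normalised in limma 3.58.1 (R 4.3.3). Gene names came from the platform table in GEO and were brought up to date by Entrez ID with RefSeq (GRCm38.p6; 99.4% of 34945 with 1 symbol matched); 932 had several symbols and 9160 none. Genotypes were compared with limma's lmFit and eBayes over 18193 genes, with Benjamini-Hochberg adjustment and a threshold of 0.05. Intervals are 95% intervals from the moderated test. The number of arrays, 3 a group, limits the precision. A list's summed level is the sum of its genes' linear values.

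In 5 simulated sets with the 18193 genes of this comparison, 200 genes were changed in each. The noise was normal, independent between genes and drawn from limma's variance model. Of changes of 0.5 on the log2 scale 25.6% were recovered, 85.2% of changes of 1 and 98.4% of changes of 2. Of the calls 4.45% were false, near the 0.05 that the adjustment sets under that model. The data themselves gave 827 calls and held the raised markers of T2 and T3, so these shares may not carry over. A difference that did not pass can be real.

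The channel genes and all lists were chosen with earlier results of these data known. The text names every called channel gene, the 10 brightest, the brightest and the smallest p of each family, 15 channels known from lens work, and of the partner lists the called and the brightest. Others are marked, or stand beside a named gene as its neighbour or family member. Same-numbered samples did not deviate together (correlations -0.052, 0.084 and 0.028), so the replicate block was an alternative only. The other alternatives were the deposited values, a common array median, dim genes left out, mean or single probe sets, other variance models, array weights and each array left out.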

Additional observations from a re-analysis of the deposited data

How the results depend on the processing

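The count of 82 channel genes above the median was 80 to 86 with 1 array left out and 21 with the upper quartile as the limit. The 6 falls became 2 with the ordinary test (Trpc6 and P2rx1), 2 with the replicate block (Trpc6 and Kcne1) and 2 to 5 with 1 array left out; Trpc6 passed in all of these settings. Over all genes, 352 rises and 475 falls became 45 and 79 with the ordinary test, 69 and 154 with the replicate block, 599 and 790 with array weights and 70 to 249 and 156 to 385 with 1 array left out. The count of 0 rises became 1 on the deposited values (Clcn1), 1 with dim genes left out (Clcn5), 1 with the mean of probe sets (Clcn1), 1 with trended robust variances (Clcn5) and 5 with array weights. In either direction, 8 channel genes were called with trended robust variances and 13 with array weights, all 6 main calls among them. Of the partner genes, 2 rose, but 1 on the deposited values, 1 with a common median, 0 with the ordinary test, 0 with the replicate block and 0 to 1 with an array left out. The 2 partner falls became 4, 4 and 4 with the deposited values, the common median and array weights, 0 with the ordinary test, 0 with the replicate block and 0 to 2 with an array left out. The causes were not tested, and the last setting also has fewer arrays. Signs turned for these differences, none of which passed: Clic3 (0.61, and -0.065 without T3), Clcn6 (0.15, and -0.13 with the mean of probe sets), Trpc4ap (-0.044 deposited, -0.080 common median), Clic4 (-0.021, -0.057), Mcoln1 (-0.023 common median, -0.13 mean of probe sets), Kcns3 (0.10), Kcnn1 (0.017), Trpc1 (0.039) and Mip (-0.0091) with the mean of probe sets, and Kcnk1 (0.11), Trpv6 (-0.026) and Trpv4 (-0.067) with array weights. With 1 array left out the ranges were -0.13 to 0.010 for Clic1, -0.0063 to 0.15 for Clic4, -0.25 to 0.051 for Cacng7, -0.14 to 0.027 for Kcnn1, -0.18 to 0.14 for Kcnk1, -0.093 to 0.12 for Trpv6, -0.14 to 0.12 for Trpv4, -0.27 to 0.047 for Trpc1, -0.020 to 0.45 for Kcnj13, -0.036 to 0.18 for Mcoln1 and -0.023 to 0.11 for Mip.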
